A study of Mus musculus with 11 samples.

Results

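The 68 genes described here belong by name to transferase families that build mucin-type O-glycans and cap their chains, and include the chaperone C1galt1c1. They were measured in colonic epithelial cells of RAG1 KO mice kept with or without dietary cellulose. These genes were chosen from the 52550 genes of the count table, as every gene whose symbol joins Galnt, Gcnt, Fut, St3gal, St6gal, St6galnac, B3gnt, B3galt, B4galt or B4galnt to a number, together with C1galt1 and C1galt1c1. The family and this rule were set with earlier results of these data known, although the rule itself uses no measured value. All mice were C57BL/6 animals carrying the RAG1 KO, which leaves them without mature T and B cells. The FFD group (n = 6) received a fiber-free purified diet with 0% cellulose, and the CD group (n = 5) a purified diet with 7% cellulose as its only fiber. Both groups were fed for 4 weeks and then drank 1.5% dextran sulphate sodium (DSS), which injures the colonic epithelium, for 5 days, and no group without DSS was analysed here. The age and sex of the mice are not given in the labels.

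Mucins are secreted or membrane-bound proteins whose serine and threonine residues carry dense sugar chains. The Galnt enzymes attach the first sugar, N-acetylgalactosamine (GalNAc). C1galt1 extends it with galactose to form core 1, for which its chaperone C1galt1c1 is needed, and B3gnt6 extends it with N-acetylglucosamine (GlcNAc) to form core 3. Gcnt enzymes add branches, B3gnt, B3galt and B4galt enzymes lengthen the chains, and B4galnt, Fut and St enzymes close them with GalNAc, fucose or sialic acid. In the colon these glycans make up most of the mass of the mucin molecules and are also food for resident bacteria. Several genes of the 68 act mainly elsewhere, for example B4galt7 and B3galt6 in the linker of proteoglycans, B4galt5, B4galt6 and B4galnt1 in glycolipids, and Fut8 in the core of N-glycans.

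Libraries held between 10374154 and 27973285 gene reads in FFD mice (median 24261218) and between 20853535 and 28588266 in CD mice (median 25543054). Levels are given as CPM, read counts scaled to a common library size with TMM factors, and comparisons between genes as CPM per kb of annotated exon. The first label number after the diet name is the same for all mice of a diet, so a cage or batch that went with diet cannot be told apart from it. Rag1 averaged 1.08 ± 0.176 CPM in FFD mice and 1.17 ± 0.221 CPM in CD mice (SD, n = 6 and 5), with 8 to 40 reads per library, and the sources used here do not say which of its exons the KO removed. The epithelial markers Epcam, Krt8 and the rest of a list of 6 were abundant. Their summed level was 11498.1 to 14326.2 CPM in FFD mice and 9912.8 to 11890.4 CPM in CD mice. A list of 9 T and B cell genes, by contrast, summed to 1.21 to 2.25 CPM in FFD mice and 1.46 to 2.34 CPM in CD mice. Among them Cd3e and Cd79a had 18 and 17 reads over all libraries together, and Cd3g had 105.

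Of the 68 genes, 56 had enough reads to be tested. Transcripts of 20 of the 56 were higher in FFD mice (35.7%), those of 5 were lower (8.93%) and 31 did not pass an adjusted p of 0.05. Over all 15044 tested genes 18.2% were higher and 18.6% lower. The median log2 fold change, FFD over CD, was 0.13 over the 56 genes and -0.03 over all tested genes. Without TMM scaling the split of the 56 genes was 13 higher and 9 lower, against 10.9% higher (1636 genes) and 32.3% lower (4863 genes) over all tested genes, the median of all genes being shifted by -0.152 on the log2 scale. With CD 2 left out, 3 of the family's genes were lower, against 14.9% of all tested genes. The counts by step or list below are to be read against the shares over all tested genes. Counts near those shares are not results about that step or list. The 16 genes called under all 19 alternative settings were Gcnt1, Gcnt2, C1galt1, B3gnt2, B3gnt3, B3galt5, B4galt1, B4galt5, B4galt6, Fut2, St3gal3, St3gal4 and St6galnac6 among the higher and Fut1, Fut9 and B4galnt4 among the lower, with 18 settings for Fut1, which the strict filter on low counts removed.

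**Figure D1:**
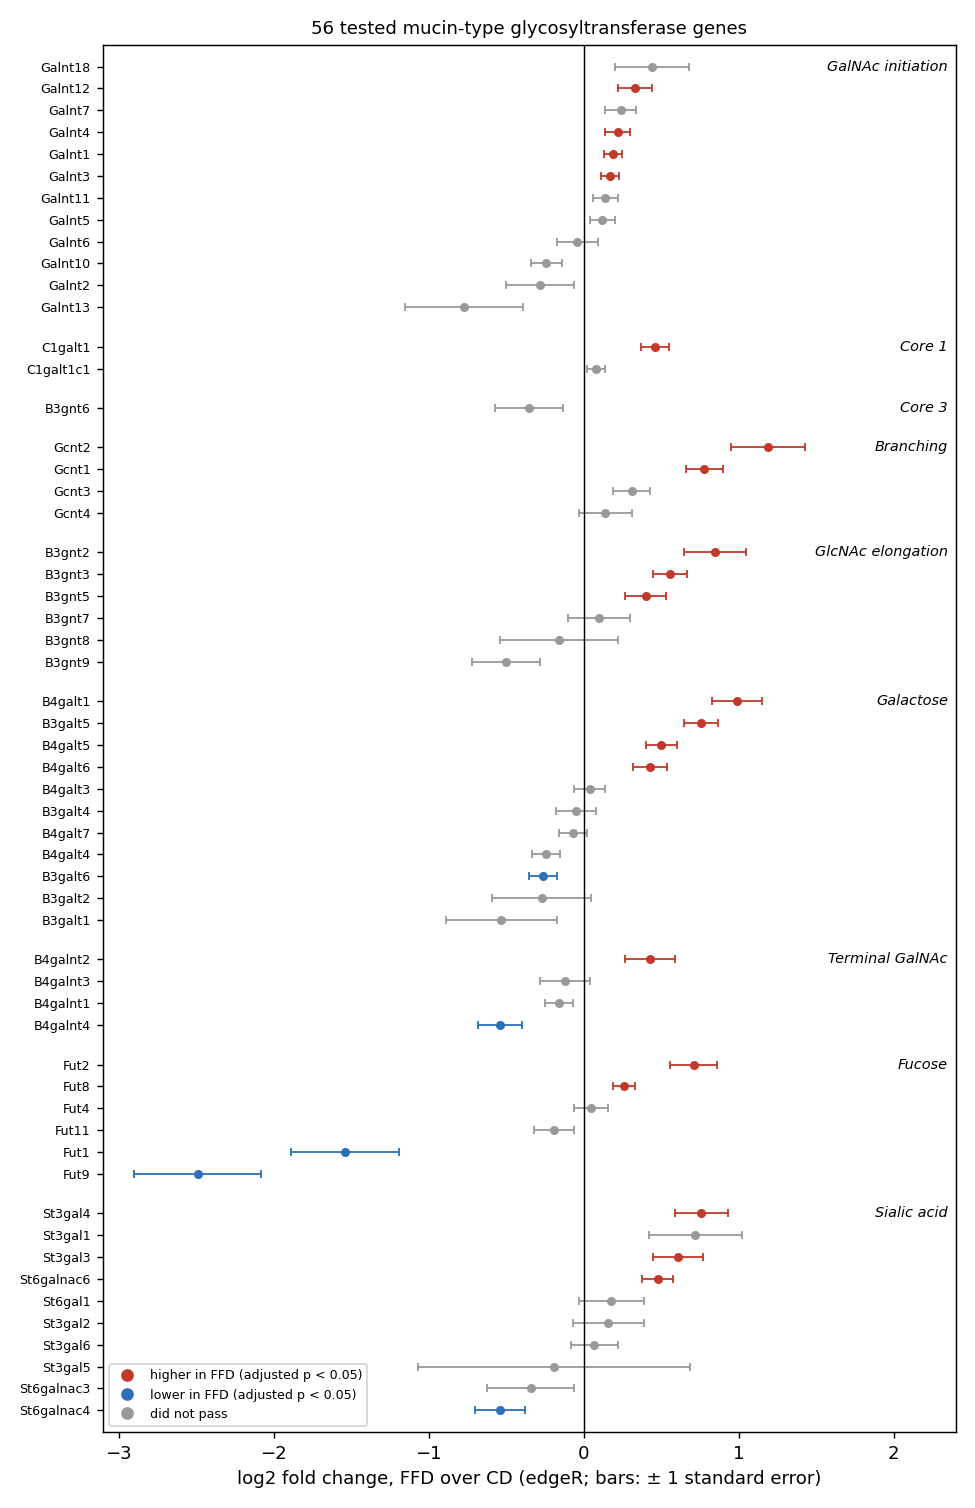
Log2 fold change (FFD over CD, horizontal axis) of each of the 56 tested genes, grouped by enzymatic step, with bars of 1 standard error from the edgeR fit. Red points are higher in FFD mice and blue points lower at an adjusted p of 0.05; 20 points are red and 5 blue, against 13 higher and 9 lower without TMM scaling.

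The 31 genes that did not pass had log2 fold changes of -0.77 to 0.72 and adjusted p-values of 0.062 to 0.89. Most changes were modest in size. The median size among the 25 called genes was 0.54 on the log2 scale, against 0.47 among all called genes, and 3 of the 25 were larger than 1. The FFD and CD values did not overlap in 10 genes. In 7 of them (C1galt1, Gcnt1, B3galt5, B4galt1, B4galt5, Fut8 and St6galnac6) every FFD mouse was above every CD mouse, as in 8.91% of all tested genes. In 3 (Fut1, Fut9 and B4galnt4) every FFD mouse was below every CD mouse, as in 9.59% of all tested genes. Of these, Fut1 had few reads in FFD mice and was kept for testing through the CD mice. The reads of all 68 genes together came to 6440.8 to 8189.3 CPM in FFD mice and 5316 to 6087.6 CPM in CD mice, with no overlap.

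Of the genes called under all settings, 10 have a single annotated start window. Shown are the stretches before the start sites of the 5 whose windows hold at least 200 bases before any annotated exon. These 5 include both directions of change. RefSeq windows on GRCm38.p6 reach from 250 bases before to 50 bases after a start, and 50 of the 68 genes matched 70 such windows. Each stretch is given 5′ to 3′ on the strand of its gene and ends before the RefSeq start or the first GENCODE exon base, whichever comes first. Capitals mark the GC box, the letters GGGCGG on either strand. The first 4 genes were higher and B4galnt4 was lower in FFD mice.
B4galt1, chr4:40854006-40854234, minus strand: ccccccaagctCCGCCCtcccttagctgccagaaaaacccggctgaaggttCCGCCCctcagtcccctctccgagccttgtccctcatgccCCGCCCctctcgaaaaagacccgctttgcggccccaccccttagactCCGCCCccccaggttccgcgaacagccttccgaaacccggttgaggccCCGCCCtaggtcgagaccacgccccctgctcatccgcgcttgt
B4galt5, chr2:167349184-167349428, minus strand: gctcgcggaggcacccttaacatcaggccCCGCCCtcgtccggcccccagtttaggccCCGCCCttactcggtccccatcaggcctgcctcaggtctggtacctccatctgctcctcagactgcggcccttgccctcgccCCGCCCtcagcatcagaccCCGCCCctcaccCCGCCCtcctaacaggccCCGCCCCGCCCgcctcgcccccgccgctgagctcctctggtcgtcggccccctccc
St3gal3, chr4:118134947-118135196, minus strand: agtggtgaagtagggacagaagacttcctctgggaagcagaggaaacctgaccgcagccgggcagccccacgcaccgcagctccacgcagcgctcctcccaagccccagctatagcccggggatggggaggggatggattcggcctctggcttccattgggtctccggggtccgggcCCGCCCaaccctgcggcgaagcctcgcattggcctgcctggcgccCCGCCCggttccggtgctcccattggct
B3gnt3, chr8:71701801-71702050, minus strand: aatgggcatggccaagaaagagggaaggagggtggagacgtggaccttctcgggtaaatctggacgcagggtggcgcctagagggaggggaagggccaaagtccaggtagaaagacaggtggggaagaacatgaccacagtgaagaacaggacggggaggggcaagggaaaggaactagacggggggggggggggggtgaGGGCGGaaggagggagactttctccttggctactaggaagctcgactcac
B4galnt4, chr7:141060728-141060977, plus strand: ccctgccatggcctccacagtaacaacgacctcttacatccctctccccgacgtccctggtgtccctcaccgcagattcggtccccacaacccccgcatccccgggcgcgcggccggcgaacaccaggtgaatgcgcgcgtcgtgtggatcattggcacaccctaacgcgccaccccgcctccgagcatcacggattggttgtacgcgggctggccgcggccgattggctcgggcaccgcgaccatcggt

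The GC box occurred 5 times in the B4galt1 stretch, 7 times in that of B4galt5, of which 2 matches share bases, and 2 times in that of St3gal3. It occurred 1 time in the B3gnt3 stretch and had 0 matches in that of B4galnt4, although that stretch was 67.6% G and C. The genes left out by the exon rule did not share this split by direction. Their whole windows held 5 (B3gnt2), 6 (C1galt1), 3 (St3gal4) and 0 (St6galnac6) matches for higher genes and 2 for the lower gene Fut1. Over whole windows it was present in 54.3% of the 70 windows of the family and in 35.7% of all 32851 windows. By call it was in 13 of 24 windows of higher genes, 2 of 4 of lower genes and 16 of 29 of uncalled genes. Counted by gene, with a match in any of its windows, these were 12 of 15, 2 of 4 and 16 of 22. The TATA box TATAAA was rare, in 1.43% of the family's windows against 13.6% of all windows, its holder being Gcnt1. The other 10 patterns searched on both strands were the TCF/LEF site CTTTGAT, the HNF4A site CAAAGTCCA, the CDX site TTTATNG, the AP-1 site TGANTCA, the STAT site TTCNNNGAA, the HNF1 pattern GTTAAT, the E-box CACGTG, the CRE pattern TGACGT and the sites of NF-kB and ISRE, and each was present in at most 7.14% of the family's windows and in 0.411% to 10.9% of all windows. A match of letters is a description of the window and not a measured binding site.

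**Figure D2:**
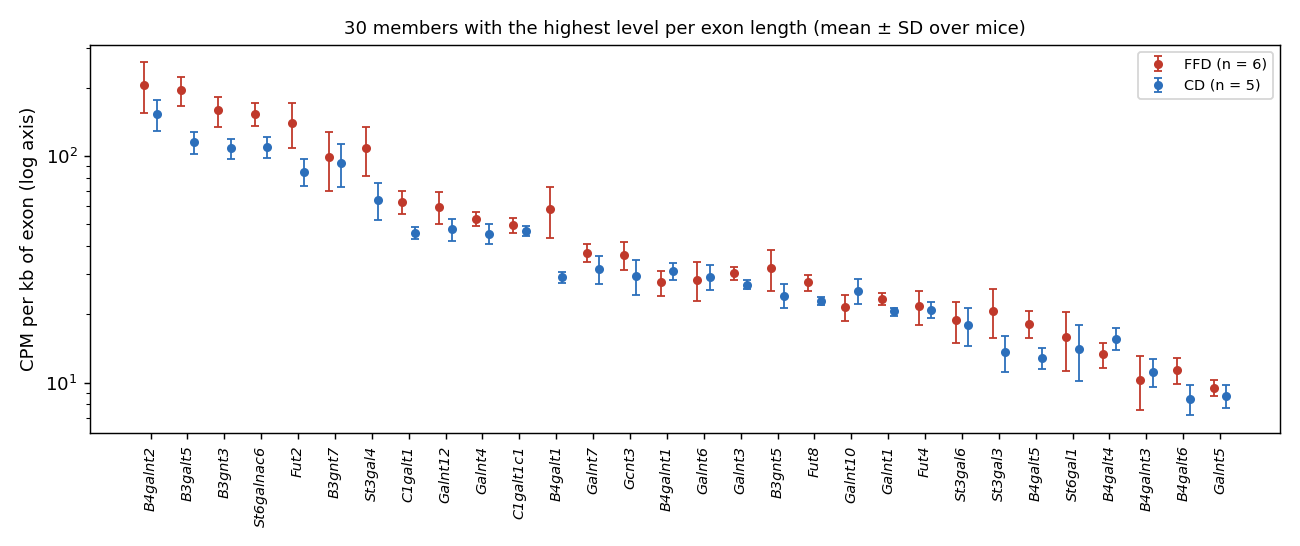
Level per kb of annotated exon (CPM per kb, log axis) of the 30 most highly expressed genes of the family, as the mean with bars of 1 SD over 6 FFD and 5 CD mice. B4galnt2 and B3galt5 lead, and the order is mixed between initiation, extension and capping enzymes.

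Per unit of exon length the most abundant transcripts were those of enzymes that extend or cap chains. B4galnt2 was first, at 207 ± 52.5 CPM per kb in FFD mice and 153 ± 24.2 in CD mice (SD, n = 6 and 5). B3galt5 followed with 195 ± 29.2 CPM per kb in FFD mice and 115 ± 12.8 in CD mice. In FFD mice these first genes lay within 1 SD of each other, whereas in CD mice they did not. B3gnt3 and St6galnac6 came next with 159 ± 24 and 154 ± 18.2 CPM per kb in FFD mice and 108 ± 10.7 and 110 ± 11.9 in CD mice, within 1 SD of each other in both diets, and Fut2 followed with a mean of 115 CPM per kb over all mice. Core 1 was represented by C1galt1 at 55 and its chaperone at 48.2 CPM per kb, whereas the core 3 enzyme B3gnt6 was at 4.01 CPM per kb. Galnt12 (54.2 CPM per kb) and Galnt4 (49.6 CPM per kb) led the initiating enzymes.

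Transcripts of initiating enzymes differed little between the diets. Of 12 tested Galnt genes 4 were higher, Galnt12 by 0.33, Galnt4 by 0.22, Galnt1 by 0.19 and Galnt3 by 0.17 on the log2 scale, and 0 were lower, whereas without TMM scaling 0 were higher and Galnt10 was lower. Over all tested genes 18.2% were higher and 18.6% lower, or 10.9% and 32.3% without TMM scaling. Galnt12 transcripts were at 119, 129 and 180 CPM (lowest, median and highest) in FFD mice and at 120, 123, 104, 92.9 and 104 CPM in CD mice. Galnt4 was at 241, 271 and 292 CPM in FFD mice and at 259, 246, 220, 202 and 231 CPM in CD mice. Both overlapped between diets, with FFD 6 the highest of all mice for each gene. Galnt1 was at 117, 129 and 139 CPM in FFD mice and at 119, 108, 114, 110 and 117 CPM in CD mice. Galnt3 was at 116, 134 and 144 CPM in FFD mice and at 112, 122, 116, 114 and 125 CPM in CD mice, again with overlap. Galnt7 and Galnt10, which prefer acceptors that already carry GalNAc, did not pass, Galnt7 with 197 ± 18.3 CPM in FFD mice and 166 ± 23.4 in CD mice (adjusted p = 0.063) and Galnt10 with 128 ± 16.5 CPM in FFD mice and 152 ± 18.9 in CD mice (adjusted p = 0.075). Galnt7 passed as higher with DESeq2, with its size factors and without CD 1. Galnt10 passed as lower without TMM scaling, without FFD 1 and without FFD 6. Galnt2, Galnt5, Galnt6, Galnt11, Galnt13 and Galnt18 also did not pass, and Galnt9, Galnt14, Galnt15 and Galnt16 had too few reads to be tested.

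Each of the 4 Galnt calls was lost when certain mice were left out. Galnt12 lost its call without CD 3, CD 4, CD 5 or FFD 2 (log2 fold change 0.24 to 0.39 over the 11 fits that leave out 1 mouse) and Galnt1 without CD 4, FFD 2 or FFD 5 (0.17 to 0.23). Galnt4 lost it without CD 3, CD 4, CD 5, FFD 1, FFD 2, FFD 4 or FFD 6 (0.18 to 0.28), and Galnt3 without CD 1, CD 3, CD 4, FFD 1, FFD 2, FFD 4, FFD 5 or FFD 6 (0.15 to 0.22). Galnt1, Galnt3 and Galnt4 also lost it without the filter on low counts (log2 fold changes of 0.19, 0.17 and 0.22).

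C1galt1, which makes core 1, was higher in FFD mice, while its chaperone differed by less than the spread between mice. C1galt1 transcripts were at 318, 400 and 421 CPM (lowest, median and highest) in FFD mice and at 281, 278, 286, 251 and 295 CPM in CD mice. Every FFD mouse was above every CD mouse, with a log2 fold change of 0.46 (SE 0.09, adjusted p = 0.0024). C1galt1c1, without which the enzyme is degraded, averaged 71.5 ± 5.29 CPM in FFD mice and 67.7 ± 3.44 CPM in CD mice (log2 fold change 0.08, adjusted p = 0.34). The core 3 enzyme B3gnt6 averaged 8.44 ± 2.59 CPM in FFD mice and 10.8 ± 2.88 CPM in CD mice, a log2 fold change of -0.35 that did not pass (SE 0.22, adjusted p = 0.23).

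Log2 ratios of the counts of 5 gene pairs within each library are given as a description without a test, since the pairs were chosen after their values were seen. C1galt1 over C1galt1c1 was 2.19 to 2.58 in FFD mice and 1.94 to 2.15 in CD mice, a difference of 0.37 with no overlap. C1galt1 over B3gnt6 was 4.91 to 6.33 in FFD mice and 4.17 to 5.12 in CD mice, a difference of 0.83 with overlap.

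The branching enzymes had 2 of 4 tested genes higher in FFD mice and 0 lower. Gcnt1, which adds the core 2 branch, was at 26.3, 38.3 and 42.6 CPM (lowest, median and highest) in FFD mice and at 19.7, 23.2, 21, 20.6 and 22.7 CPM in CD mice. Its values did not overlap, with a log2 fold change of 0.78 (SE 0.12, adjusted p = 0.0011). Gcnt2, which branches linear poly-N-acetyllactosamine into the I antigen, was at 15.4, 26.3 and 36.4 CPM in FFD mice and at 12.5, 8.39, 9.97, 10.8 and 15.9 CPM in CD mice. It had the largest rise of the 56 tested genes, 1.19 on the log2 scale (SE 0.24, adjusted p = 0.003), with FFD 3 below CD 5. Gcnt3, the mucin-type enzyme for core 2 and core 4 branches, was the most abundant of the 4 per unit length at 36.6 ± 5.34 CPM per kb in FFD mice and 29.6 ± 5.24 in CD mice, and did not pass (158 ± 23 CPM in FFD mice and 127 ± 22.5 CPM in CD mice, log2 fold change 0.31, adjusted p = 0.062). Gcnt3 passed as higher with DESeq2, without CD 1 and without FFD 5. Gcnt1 over Gcnt3 in the same libraries was -2.49 to -1.7 in FFD mice and -2.99 to -2.33 in CD mice, a difference of 0.45 with overlap. Gcnt4 did not pass (0.14), and Gcnt7, with 8 reads in all, was not tested.

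Of the 6 tested B3gnt genes outside core 3 synthesis, 3 were higher and 0 lower in FFD mice, whereas without TMM scaling 2 were higher and B3gnt9 was lower. The shares over all tested genes were 18.2% and 18.6%, or 10.9% and 32.3% without TMM scaling. B3gnt3, which extends core 1, was at 361, 502 and 566 CPM (lowest, median and highest) in FFD mice and at 309, 304, 315, 338 and 383 CPM in CD mice. Only FFD 3 fell within the CD range, and the log2 fold change was 0.56 (SE 0.11, adjusted p = 0.0027). B3gnt2, the main poly-N-acetyllactosamine synthase, was at 14.5, 20.1 and 28.3 CPM in FFD mice and at 11.7, 15.2, 8.07, 10.9 and 11.2 CPM in CD mice. It rose by 0.85 on the log2 scale (SE 0.20, adjusted p = 0.0056), with FFD 1 and FFD 3 inside the CD range and 66% of its exon length shared with other annotated genes. B3gnt5, which starts lacto-series glycolipids, was at 138, 150 and 211 CPM in FFD mice and at 109, 119, 126, 125 and 150 CPM in CD mice (log2 fold change 0.40), and its call was lost without TMM scaling (0.25) and without CD 1, CD 2, CD 3, CD 4, FFD 4 or FFD 5 (0.32 to 0.49 over the 11 fits). B3gnt7, a further elongating enzyme at 96.3 CPM per kb over all mice, differed by less than the spread between mice, at 255, 426 and 560 CPM in FFD mice and 335, 350 and 526 CPM in CD mice (log2 fold change 0.10, SE 0.20, adjusted p = 0.73). B3gnt8 and B3gnt9 did not pass, and B3gnt4 was not tested.

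**Figure D3:**
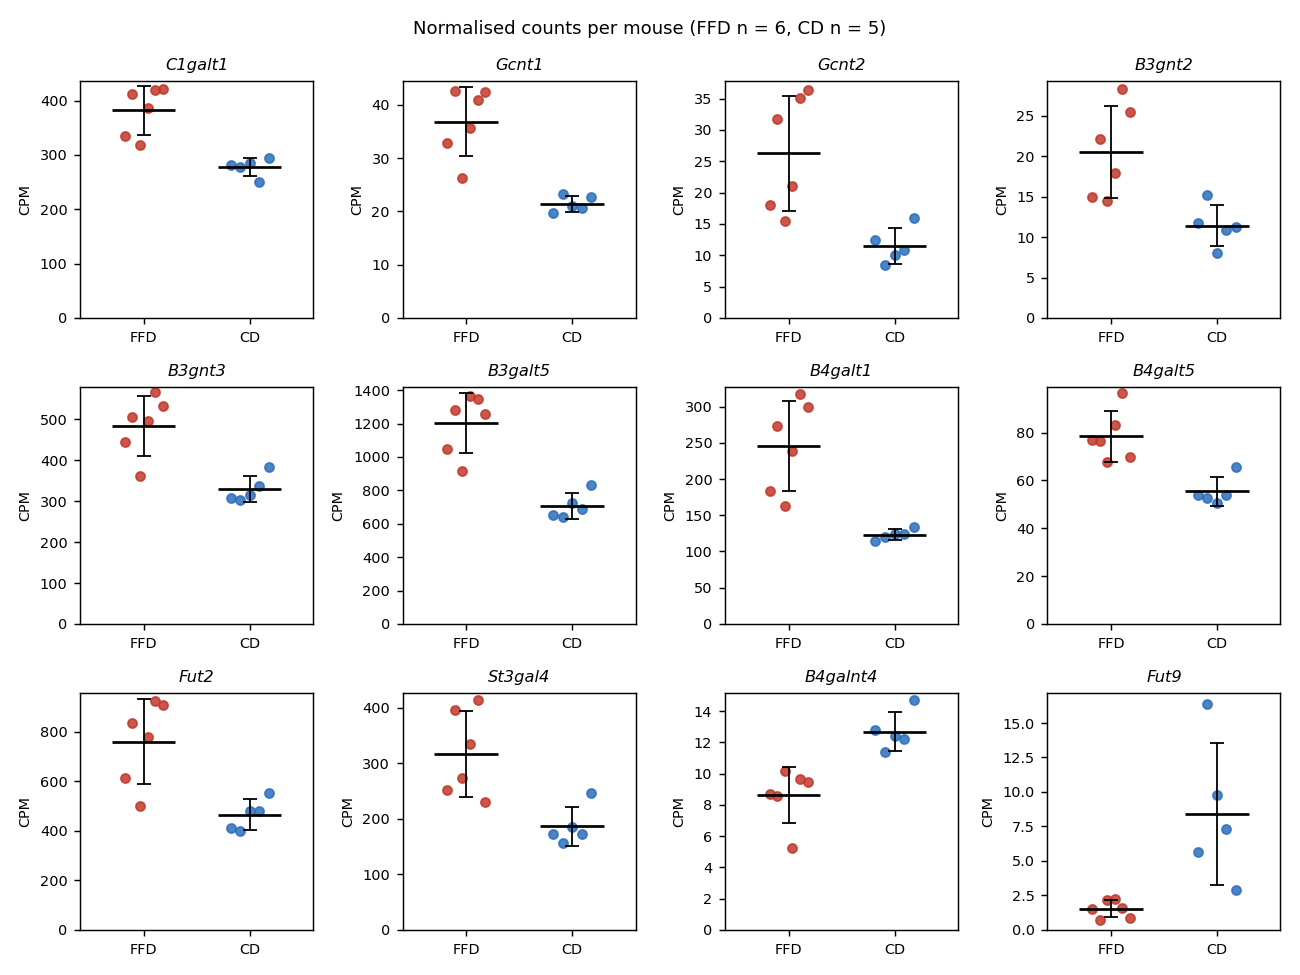
Level (CPM, axes from 0) in each mouse of 12 genes called under all settings, with FFD mice on the left and CD mice on the right of each panel; the line is the mean and the bars are 1 SD. The first 10 genes are higher in FFD mice, and B4galnt4 and Fut9 are lower with no FFD mouse inside the CD range.

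Of 11 tested galactosyltransferases 4 were higher in FFD mice and 1 lower, or 4 and 2 without TMM scaling. The shares over all tested genes were 18.2% and 18.6%, or 10.9% and 32.3% without TMM scaling. B3galt5, which adds galactose to GlcNAc to make type 1 chains, was at 917, 1269.7 and 1362.9 CPM (lowest, median and highest) in FFD mice and at 651, 639, 727, 687 and 835 CPM in CD mice. Its log2 fold change was 0.76 (SE 0.11, adjusted p = 0.0011) with no overlap. B4galt1, the main enzyme for type 2 chains, was at 163, 256 and 317 CPM in FFD mice and at 115, 120, 124, 124 and 134 CPM in CD mice. It rose by 0.99 on the log2 scale (SE 0.16, adjusted p = 0.0012), again without overlap, and varied more between FFD mice (SD 62.5 CPM) than between CD mice (SD 7 CPM). B4galt5 was at 67.5, 76.8 and 96.7 CPM in FFD mice and at 53.9, 52.8, 50.7, 53.8 and 65.8 CPM in CD mice (log2 fold change 0.50, SE 0.10, adjusted p = 0.0025). B4galt6, which like B4galt5 makes lactosylceramide, was at 51.2, 67.2 and 75.8 CPM in FFD mice and at 49.5, 50.8, 45.3, 40 and 59.9 CPM in CD mice (log2 fold change 0.43). Both lactosylceramide synthases were higher, B4galt5 without overlap and B4galt6 with FFD 3 inside the CD range.

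B3galt6, of the proteoglycan linker, was lower, at 8.59, 9.83 and 10.9 CPM in FFD mice and at 11.5, 12.3, 10.8, 11.4 and 12.9 CPM in CD mice (log2 fold change -0.26). That call was lost with DESeq2 or its size factors, without the filter on low counts and without CD 1, CD 2, CD 4, CD 5, FFD 1, FFD 2, FFD 4 or FFD 6 (-0.29 to -0.20 over the 11 fits). The other linker enzyme, B4galt7, had a log2 fold change of -0.07 and did not pass. The 6 that did not pass were B3galt1, B3galt2, B3galt4, B4galt3, B4galt4 and B4galt7. B4galt2, with 37 reads in all, was not tested.

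The 4 enzymes that add terminal GalNAc split. B4galnt2, which forms the Sda antigen in mouse gut epithelium, was at 269, 321 and 504 CPM (lowest, median and highest) in FFD mice and at 336, 245, 264, 235 and 241 CPM in CD mice. Its log2 fold change was 0.43, with CD 1 above 4 of the 6 FFD mice, and the call was lost with limma-voom, with the robust fit, without TMM scaling (0.27) and without CD 2, CD 3, CD 4, CD 5, FFD 2, FFD 4, FFD 5 or FFD 6 (0.31 to 0.55 over the 11 fits). B4galnt4, which makes GalNAc-terminated LacdiNAc chains, was lower, at 5.24, 9.08 and 10.2 CPM in FFD mice and at 12.8, 11.4, 12.4, 12.2 and 14.7 CPM in CD mice. The values of B4galnt4 did not overlap (log2 fold change -0.54, SE 0.14, adjusted p = 0.0089). B4galnt3, which makes the same structure, and the ganglioside enzyme B4galnt1 did not pass, at -0.12 and -0.16, and without TMM scaling B4galnt1 joined B4galnt4 among the lower genes while none was higher.

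Fucosyltransferases moved in both directions, with 2 of 6 tested genes higher and 2 lower in FFD mice, or 1 higher and 2 lower without TMM scaling. The shares over all tested genes were 18.2% and 18.6%, or 10.9% and 32.3% without TMM scaling. Such small counts are not read as a result about these enzymes as a set. Fut2, which puts fucose on terminal galactose of mucosal glycans (the H antigen), was the abundant one, at 498, 808 and 923 CPM (lowest, median and highest) in FFD mice and at 410, 398, 479, 479 and 554 CPM in CD mice. It rose by 0.71 on the log2 scale (SE 0.15, adjusted p = 0.0042), with FFD 3 within the CD range. Fut1, which makes the same linkage, was scarce, with 10, 3, 17, 4, 8 and 4 reads in FFD mice 1 to 6 and 24, 46, 24, 27 and 21 reads in CD mice 1 to 5. In normalised units Fut1 was at 0.13, 0.362 and 0.681 CPM in FFD mice and at 0.955, 1.66, 1.06, 0.887 and 0.797 CPM in CD mice, lower without overlap (log2 fold change -1.54, SE 0.35, adjusted p = 0.005). Of the FFD mice only FFD 1 and FFD 3 had at least 10 reads, the minimum count of the filter on low counts. Fut1 was thus tested through the CD mice, where it was high, and its call carries that limit.

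Fut9, which adds fucose to GlcNAc in the Lewis x structure, had the largest fall of the 56 tested genes. It was at 0.735, 1.55 and 2.22 CPM in FFD mice and at 5.61, 16.4, 9.75, 7.29 and 2.89 CPM in CD mice. Every CD mouse was above every FFD mouse, although CD mice themselves spanned 2.89 to 16.4 CPM (log2 fold change -2.49, SE 0.41, adjusted p = 0.0014). Fut4, which makes the same linkage, averaged 88.3 ± 15.3 CPM in FFD mice and 85.1 ± 6.87 CPM in CD mice (log2 fold change 0.05, adjusted p = 0.73). Fut8, the core fucosyltransferase of N-glycans, was at 199, 217 and 239 CPM in FFD mice and at 169, 185, 185, 185 and 186 CPM in CD mice, higher by 0.26 without overlap, but at 0.11 without TMM scaling it did not pass. Fut11 did not pass, and Fut7 and Fut10 were not tested.

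Of 10 tested sialyltransferases 3 were higher in FFD mice and 1 lower, with and without TMM scaling. The shares over all tested genes were 18.2% and 18.6%, or 10.9% and 32.3% without TMM scaling. St3gal4, which caps galactose of type 1 and type 2 chains, was at 230, 305 and 414 CPM (lowest, median and highest) in FFD mice and at 172, 157, 185, 173 and 247 CPM in CD mice. Its log2 fold change was 0.76 (SE 0.17, adjusted p = 0.0042), with FFD 6 inside the CD range. St3gal3, which also acts on such chains, was at 41, 55.1 and 84.1 CPM in FFD mice and at 37.7, 48.5, 33.2, 30.8 and 38.5 CPM in CD mice. It was higher by 0.61 on the log2 scale with FFD 3 below CD 2 (SE 0.16, adjusted p = 0.01). St6galnac6, which adds sialic acid to GlcNAc or GalNAc within already sialylated chains, was at 603, 748 and 872 CPM in FFD mice and at 504, 590, 493, 473 and 596 CPM in CD mice. It was the most abundant sialyltransferase per unit length in both diets and was higher without overlap (log2 fold change 0.48, SE 0.10, adjusted p = 0.0033).

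St6galnac4, which adds a further sialic acid to the GalNAc of sialylated core 1, was lower. It was at 13.7, 15.6 and 23.6 CPM in FFD mice and at 17.4, 30.3, 24.4, 27.5 and 21.4 CPM in CD mice, overlapping through FFD 1 and CD 1. Its log2 fold change was -0.54 (SE 0.16, adjusted p = 0.019), and without CD 2 it was -0.43 and did not pass (adjusted p = 0.058). St6galnac1, which forms sialyl-Tn from the first GalNAc, had 0 reads in the 6 FFD libraries together, which allows up to 3, and 8 reads in the 5 CD libraries (2, 1 and 5 in CD 3, CD 4 and CD 5), and was not tested. St3gal1 and St3gal2, which sialylate the galactose of core 1, did not pass, St3gal1 with 6.75 ± 1.54 CPM in FFD mice and 4.06 ± 2.36 CPM in CD mice (log2 fold change 0.72, SE 0.30, adjusted p = 0.075). With DESeq2, with limma-voom and without CD 1, St3gal1 passed as higher. St3gal5, St3gal6, St6gal1 and St6galnac3 did not pass, of which St3gal6 was abundant at 116 ± 24.1 CPM in FFD mice and 110 ± 21.4 CPM in CD mice (log2 fold change 0.07). St6gal2 and St6galnac5 were not tested. A further row named St6galnac2_1, outside the naming rule and looked at after its values were seen, was lower at 22.8 ± 4.99 CPM in FFD mice and 37.4 ± 7.07 CPM in CD mice (log2 fold change -0.71, SE 0.16, adjusted p = 0.0047), while St6galnac2_2 had 0 reads in every library.

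Within the family, 2 pairs of genes that lie near each other changed in opposite directions. St6galnac4 (chr2:32587095-32599698) and St6galnac6 (chr2:32599709-32620806) lie head to tail on the plus strand of GRCm38, and 10 bases separate the annotated end of the one from the start of the other. Their log2 fold changes were -0.54 and 0.48, and St6galnac6 over St6galnac4 within a library was 4.89 to 5.99 in FFD mice and 4.1 to 4.85 in CD mice on the log2 scale, a difference of 1.01 with no overlap. Fut1 (chr7:45617289-45621059, plus strand) and Fut2 (chr7:45648591-45666394, minus strand) are 27.5 kb apart, and genes of other families between them were not looked at. Fut2 over Fut1 was 9.47 to 12.43 in FFD mice and 7.89 to 9.41 in CD mice on the log2 scale, a difference of 2.29 with no overlap. Fut1 and Fut2 are similar in sequence, and no source used here says how the counting treated reads that match both. The pair B4galt2 and St3gal3, 48.7 kb apart on chromosome 4, had 1 tested gene.

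**Figure D4:**
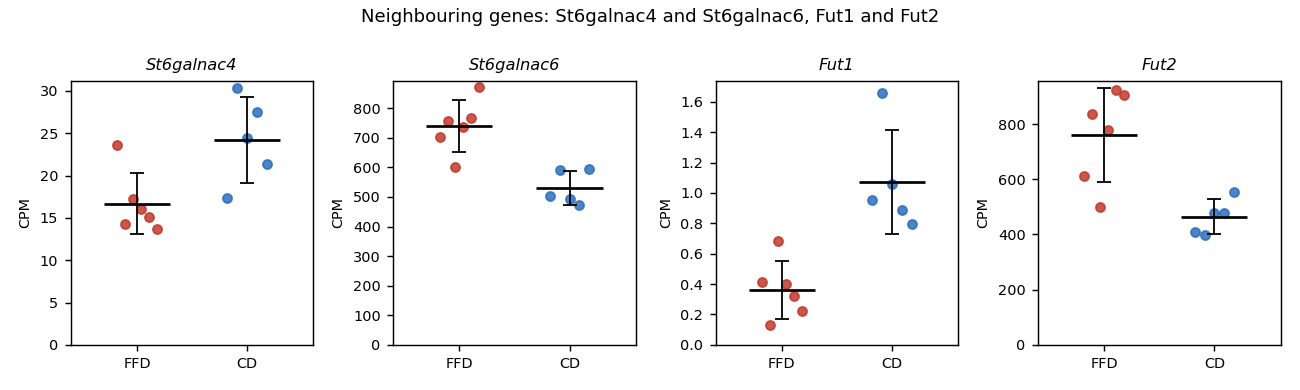
Level (CPM, axes from 0) in each mouse of the adjoining genes St6galnac4 and St6galnac6 and of Fut1 and Fut2, which are 27.5 kb apart, with FFD mice left of CD mice, the line at the mean and bars of 1 SD. St6galnac4 and Fut1 are lower and St6galnac6 and Fut2 higher in FFD mice.

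The mice of the FFD group did not share these changes equally. Of the 20 higher genes, FFD 2 was above all CD mice in 20, FFD 4 in 19, FFD 5 and FFD 6 in 18 each, FFD 1 in 17 and FFD 3 in 8. FFD 3 was also the FFD mouse nearest to the CD mice along the leading principal component, computed on 1000 genes. In the 5 lower genes, by contrast, FFD 3 was below all CD mice in 4, as were FFD 1 and FFD 5, and the other FFD mice were in 5. FFD 3 thus had the lowest count in the higher genes and shared the lowest count in the lower genes.

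Mucins carry these glycans. Of 10 tested mucin genes 6 were higher in FFD mice and 0 lower, or 4 and 0 without TMM scaling, with a median log2 fold change of 0.59. Muc13, a membrane mucin, averaged 4580 ± 777 CPM in FFD mice and 2301 ± 377 CPM in CD mice (log2 fold change 0.99, SE 0.14, adjusted p = 9.2e-04), without overlap. Muc3 (0.90), Muc1 (1.09) and Muc4 (0.62), also membrane mucins, were higher, and so were Muc5b and Muc3a, Muc3 also being one of the colonocyte markers. Muc2, the gel-forming mucin of the colon, was at 1602.4 to 3200.9 CPM in FFD mice and 1133.7 to 2715.5 CPM in CD mice (log2 fold change 0.57, SE 0.23), and did not pass (adjusted p = 0.064).

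The supply of activated sugars was mixed, with 10 of 36 tested genes higher and 5 lower, or 5 higher and 10 lower without TMM scaling, and a median log2 fold change of 0.10. The shares over all tested genes were 18.2% and 18.6%, or 10.9% and 32.3% without TMM scaling. Gfpt1, the entry enzyme of the hexosamine pathway that leads to UDP-GlcNAc, averaged 1302.8 ± 134 CPM in FFD mice and 865 ± 86.1 CPM in CD mice (log2 fold change 0.59, adjusted p = 0.0012), and Amdhd2 of the same pathway rose by 0.73. Pmm1, a phosphomannomutase, was lower at 12.5 ± 1.15 CPM in FFD mice and 19.1 ± 2.26 CPM in CD mice (-0.61), and Galk1, the galactokinase, was lower by 0.73 (log2 fold change -0.73). Leaving out FFD 3 moved the higher count of this list to 16, and leaving out CD 1, CD 2, FFD 5 or FFD 6 moved its lower count to 3.

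Enzymes that sulfate glycans also divided, with 4 of 12 tested genes higher and 3 lower, or 2 higher and 3 lower without TMM scaling, and a median of 0.20. The shares over all tested genes were 18.2% and 18.6%, or 10.9% and 32.3% without TMM scaling. Chst4, a GlcNAc sulfotransferase of mucins, averaged 175 ± 35.5 CPM in FFD mice and 110 ± 17.1 CPM in CD mice (log2 fold change 0.67, adjusted p = 0.0042), and the galactose sulfotransferase Gal3st2 rose by 0.57. Chst10 fell by 2.15 on the log2 scale at a level of 0.194 ± 0.187 CPM in FFD mice and 0.897 ± 0.203 CPM in CD mice, and Papss1, which makes the sulfate donor, fell by 0.49. Like Fut1, Chst10 was kept for testing through the CD mice, where it was high.

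Transferases of other glycans had 8 of 34 tested genes higher and 4 lower, or 6 higher and 9 lower without TMM scaling, and a median of 0.04. These counts were near the shares over all tested genes, 18.2% and 18.6%, or 10.9% and 32.3% without TMM scaling. The N-glycan branching enzymes Mgat4a (0.62) and Mgat5 (0.45) and the proteoglycan xylosyltransferase Xylt1 (0.88) rose, and Lfng, which extends O-fucose on Notch receptors, fell by 1.15. Without CD 2, CD 5 or FFD 5 the lower count was 2. Of 13 tested genes for glycan removal 5 were higher, among them the lysosomal enzymes Fuca2 (0.34), Ctsa (0.35) and Fuca1 (0.48), and 0 were lower, or 2 without TMM scaling (median 0.05).

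**Figure D5:**
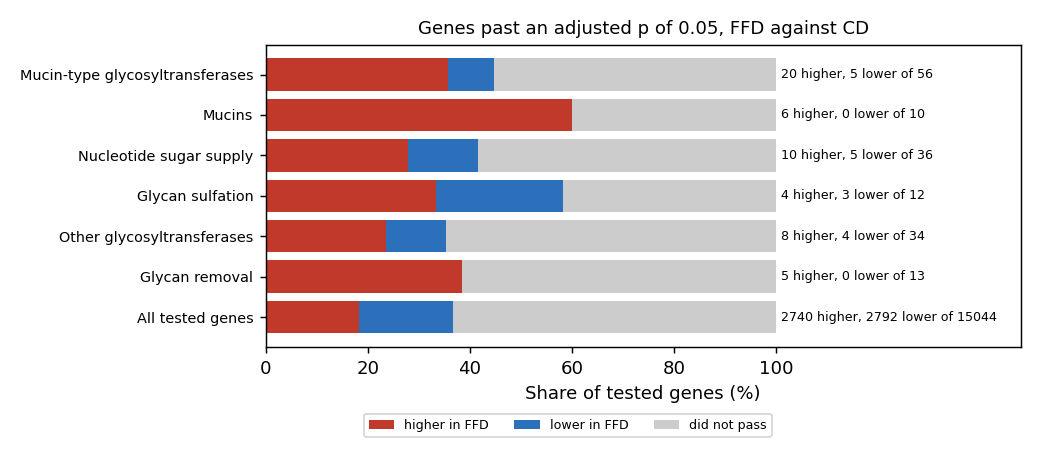
Share of tested genes (percent, horizontal axis) that were higher (red), lower (blue) or did not pass (grey) in FFD against CD mice, for the glycosyltransferase family, 5 related lists and all 15044 tested genes. The family has 20 higher and 5 lower genes of 56; without TMM scaling it has 13 and 9, the nucleotide sugar list turns to 5 and 10, and the other glycosyltransferases to 6 and 9.

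Several lists of epithelial cell markers also had genes called between the diets. Of the 6 general epithelial markers 5 were higher in FFD mice and 0 lower, with a median log2 fold change of 0.31. In bulk samples, fewer cells of a type and less RNA per cell cannot be told apart. Of 12 absorptive colonocyte markers 8 were higher and 0 lower, with a summed level of 15182.7 to 27881.8 CPM in FFD mice and 8994 to 13146.4 CPM in CD mice, and of 12 goblet cell markers 5 were higher and 1 lower, at 11903.2 to 17929.7 CPM in FFD mice and 6080.1 to 10738.4 CPM in CD mice. Stem and progenitor markers were lower in 9 of 11 tested genes (327 to 459 CPM in FFD mice and 537 to 634 CPM in CD mice) and markers of dividing cells in 8 of 12 (429 to 1018.2 CPM in FFD mice and 1039.7 to 1450.7 CPM in CD mice). Of 8 tested tuft cell markers 3 were higher and 0 lower, of 11 enteroendocrine markers 3 were higher and 1 lower, and of 5 tested mast cell markers 0 were higher and 1 lower. Over all tested genes 18.2% were higher and 18.6% lower. The small enteroendocrine and mast cell counts are therefore not read as a result about those cells. FFD 3 had the lowest colonocyte sum and the highest stem and dividing cell sums of the FFD mice. The part of these cell types in the differences of the family was not tested.

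Other cells contributed few reads. Of 12 macrophage and monocyte markers 3 were higher, against 18.2% of all tested genes, with sums of 130 to 161 CPM in FFD mice and 87.9 to 128 CPM in CD mice. Most of that sum was Cd14, at 104 to 131 CPM in FFD mice and 68.9 to 105 CPM in CD mice. C1qb was also higher (log2 fold change 0.84, adjusted p = 0.029). Of the 12 markers, 11 had log2 fold changes above 0, the highest being 1.54, and 1 was below 0. Cd68, C1qa and Fcer1g were among those that did not pass. Of 4 tested neutrophil markers 2 were higher, with sums of 9.97 to 68.7 CPM in FFD mice and 3.82 to 12.1 CPM in CD mice. In FFD mice most of that sum was Ltf, at 6.61 to 60.3 CPM, against 2.48 to 7.48 CPM in CD mice. Csf3r did not pass (log2 fold change 0.20). Fibroblast, muscle and endothelial markers summed to 3.93 to 6.79 CPM in FFD mice and 5.51 to 8.11 CPM in CD mice, T and B cell markers to 1.21 to 2.25 CPM in FFD mice and 1.46 to 2.34 CPM in CD mice, and no marker was at 0 in all libraries. Their part in the results was not tested. Of the 68 genes, 28 share exon bases with another annotated gene, B3gnt2, B4galnt2, Fut8, Galnt4, Gcnt2 and St3gal4 among the called ones, and no source used here says whether the counting used strand.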

How the data were processed

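Colonic epithelial cells of 11 RAG1 KO mice were sequenced, 1 library per mouse. The authors deposited raw read counts per gene, made from single reads that were trimmed and mapped to GRCm38 with the Qiagen CLC Workbench. The submitters' notes also name FastQC, DESeq2 1.22.2 and R 3.5.1, and the sources used here give neither the annotation release nor the use of strand and of multi-mapping reads. Genes were kept by filterByExpr (minimum count 10, minimum total 15), scaled by TMM and tested for diet alone with the quasi-likelihood F-test of edgeR 4.0.16 in R 4.3.3, with Benjamini-Hochberg adjustment over all 15044 tested genes and a threshold of 0.05. The standard error is the log2 fold change divided by the square root of F. Alternatives were DESeq2 1.42.0, limma-voom (limma 3.58.1), a robust fit, DESeq2 size factors, no TMM scaling, no filter, a strict filter (at least 1 CPM in at least 5 mice), the label number as a block, and each of the 11 mice left out. Steps were tested on simulated counts.

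Ratios of 5 gene pairs, with 0.5 added to each count, were described without a test. Coordinates, exon lengths and overlaps come from GENCODE M21 on GRCm38, and start windows from RefSeq on GRCm38.p6. Every gene of the family was named. Those past the threshold were given with their values and those that did not pass by counts, with values for the 5 most abundant by CPM and, chosen after their values were seen, for partners of called genes. From each related list the up to 4 genes with the smallest p were named, with Muc2 added, and 1 such gene is not reported here. The family, the lists and the marker genes were chosen with earlier results of these data known, and the gene pairs and printed windows after their values were seen. Replicates were separate mice, so p-values set the difference between diets against the spread between mice of a diet. That spread does not cover a cage or batch that went with diet. Library totals of 10374154 to 28588266 reads set the precision for scarce transcripts, and a count of 0 was taken to allow up to 3 reads.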

Additional observations from a re-analysis of the deposited data

Results flagged for a closer look

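In each diet, the gap between the highest or lowest mouse and the next was set against the whole range by Dixon's critical values, which chance passes in about 1 in 20 groups of values. In 12 of 112 such groups (10.7%) 1 mouse lay far from the rest, and since all genes share the same mice these groups are not independent. In FFD mice these were St6galnac4 in FFD 1 (23.6 CPM, next 17.2), B4galnt4 in FFD 4 (5.24 CPM, next 8.56), St3gal5 in FFD 4 (3.63 CPM, next 1), Galnt12 in FFD 6 (180 CPM, next 138) and St3gal3 in FFD 6 (84.1 CPM, next 56.9). In CD mice, 4 of the 7 such values came from CD 2, namely B3gnt7 (526 CPM, next 375), B4galt4 (60 CPM, next 49.2), Galnt10 (185 CPM, next 147) and Galnt6 (139 CPM, next 112). The remaining ones were B4galnt2 in CD 1 (336 CPM, next 264), Fut8 in CD 1 (169 CPM, next 185) and B4galt5 in CD 5 (65.8 CPM, next 53.9). Of these genes, St6galnac4, B4galnt4, Galnt12, St3gal3, B4galnt2, Fut8 and B4galt5 were called between the diets. St3gal3, B4galnt4, B4galt5 and Fut8 kept their calls when any 1 mouse was left out.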

How the results depend on the processing

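Of the 25 called genes of the family, 16 kept their call under all 19 settings (18 for Fut1) and 17 whenever any 1 mouse was left out, no direction turned, and 8 uncalled genes passed under at least 1 setting. These 8 were Gcnt3, Galnt7, Galnt10, Galnt13, St3gal1, B3gnt9, B4galt4 and B4galnt1. Over all tested genes of the family, 971 values stayed on their side of the threshold, 66 lost a call and 20 gained one. The family's higher genes ranged from 14 to 21 and its lower genes from 3 to 6 when 1 mouse was left out, and all genes from 2281 to 3086 higher and 1983 to 2993 lower. Without TMM scaling the family had 13 higher and 9 lower genes, all genes 1636 higher and 4863 lower, nucleotide sugar supply 5 higher and 10 lower, sulfation 2 higher, other glycosyltransferases 9 lower and glycan removal 2 lower. Without the filter on low counts 2 other glycosyltransferases were lower. With 1 mouse left out, nucleotide sugar supply had 8 to 16 higher and 3 to 5 lower genes and the other glycosyltransferases 2 to 4 lower. Mice with the same last label number were not shown to be paired, with correlations of their deviations from -0.283 to 0.229 over 5 pairs. With that number as a replicate block the family had 16 higher and 6 lower genes, all genes 1953 higher and 1829 lower, 2 other glycosyltransferases were lower, and Galnt1, Galnt3, Galnt4, B4galnt2, B3galt6 and St6galnac4 did not pass. The causes of these changes were not tested, and some of the settings bring fewer mice or a shifted scale. Genes such as Fut1, with 3 to 17 reads in FFD mice, are limited by depth.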
